A study of Mus musculus with 13 samples.

Results

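Complexes II to V of the mitochondrial respiratory chain were examined through 48 nuclear genes in parametrial white adipose tissue (pmWAT) of Lmna fl/fl and Lmna iADKO mice. The genes were taken by name: protein-coding genes for succinate dehydrogenase (Sdha to Sdhd), complex III (Uqcr genes and Cyc1), cytochrome c oxidase (Cox4 to Cox8 genes) and ATP synthase (Atp5 genes) with at least 10 counts in all libraries together. They came from 33618 gene identifiers, of which 24514 reached 10 counts. Complex II had 4 of them, complex III 9, complex IV 17 and complex V 18. Cox8c, with 1 count, was the gene left out by the minimum, and Cox6a2, with 173 counts, was the lowest kept. Both genotypes carried loxP sites around exons 10 and 11 of Lmna, the gene for lamins A and C, on both alleles. The iADKO mice also carried 1 copy of Adipoq-CreERT2, a Cre recombinase that is expressed from the adiponectin promoter and becomes active with tamoxifen, so that recombination was limited to cells using that promoter. All mice, controls included, received tamoxifen at 50 mg/kg on 5 consecutive days at 12 to 14 weeks of age, and the tissue was taken 2 weeks posttamoxifen. Bulk strand-specific mRNA libraries were made from 7 fl/fl and 6 iADKO mice, and all carried 1 batch label. The comparison asks how the RNA of these subunits differed between pmWAT with and without adipocyte deletion of Lmna.

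Complex II oxidizes succinate and passes the electrons to ubiquinone, and it is the complex of the chain whose subunits are all encoded in the nucleus. Complex III moves electrons from ubiquinol to cytochrome c, and complex IV moves them on to oxygen. Both pump protons out of the mitochondrial matrix, and complex V lets the protons flow back to make ATP. Complex IV has several subunits with a widely expressed form and a second form restricted to tissues such as heart, skeletal muscle, brown fat, lung or testis. Mature white adipocytes use the chain to support fatty acid handling and lipid synthesis, and the mitochondrial genome supplies further membrane subunits of complexes III, IV and V.

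The libraries held 18854223 to 19776491 counts. Lmna itself was not lower in iADKO: it lay between 74.7 and 98.5 CPM (counts scaled to library size) in fl/fl and between 80.1 and 109 CPM in iADKO, with a log2 fold change of 0.19 ± 0.08 (SE; edgeR adjusted p = 0.0785). Whole-gene counts do not single out the 2 exons between the loxP sites, so the directions below rest on the labels of the mice. Why Lmna was not lower was not tested. Adipocyte markers such as Adipoq, at 961 CPM or more in every library, were present as the tissue label states. The fl/fl 5 library stood apart from the other fl/fl libraries and the iADKO 6 library from the other iADKO libraries: fl/fl 5 was the lowest fl/fl library in 41 of the 47 members tested, and iADKO 6 was the highest iADKO library in 41 of 47.

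Of the 47 members tested, 33 fell in iADKO pmWAT, 2 rose and 12 were not called at an adjusted p under 0.05. The share of all 16753 genes tested that fell was 16.3%, and the share that rose was 14.1%. The members' median log2 fold change was -0.37, which is 77.2% of the fl/fl level, beside a median of 0.03 over all genes. In this bulk tissue, fewer cells of a type and less RNA per cell cannot be told apart. The sign was negative in 43 members and positive in 4, namely Cox6b2, Atp5if1, Cox7a2l and Atp5mc1. No member had all 6 iADKO values below all 7 fl/fl values, which 3.93% of all genes tested had, and none had all 6 above all 7, which 2.71% had. Cox6a2 was too low to be tested.

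**Figure D1:**
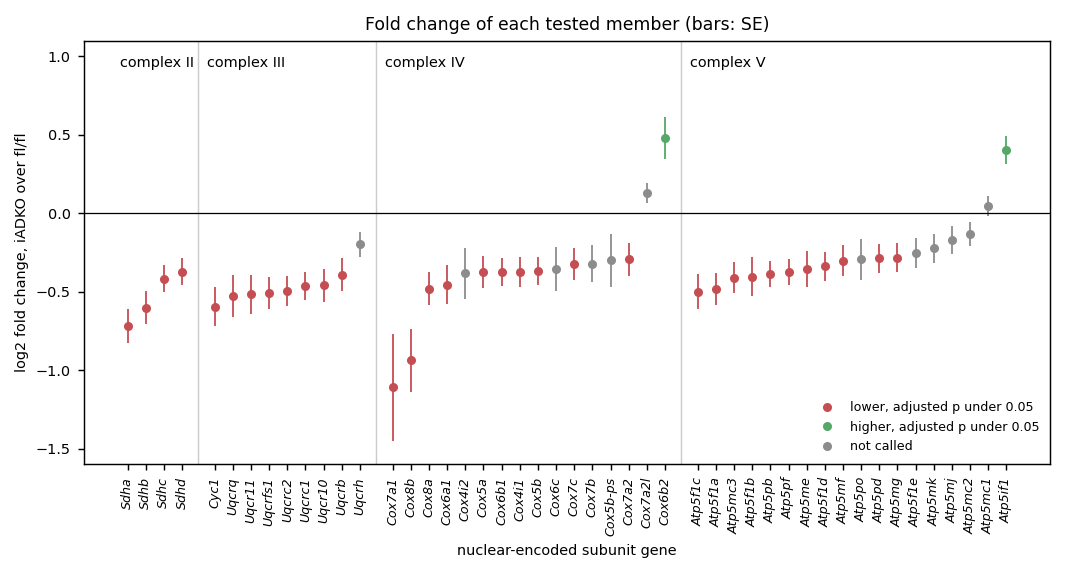
Log2 fold change of iADKO over fl/fl (vertical axis) for each of the 47 tested subunit genes, grouped by complex, with SE bars. Red marks the 33 called lower, green the 2 called higher (Cox6b2 and Atp5if1) and grey the 12 not called. Cox7a1 and Cox8b lie lowest, and all of complex II and 8 of 9 genes of complex III are red.

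All 4 genes of complex II fell, with a median log2 fold change of -0.51. Sdha encodes the flavoprotein that oxidizes succinate. Its lowest, median and highest levels were 477, 684 and 711 CPM in fl/fl and 337, 376 and 508 CPM in iADKO. The lowest fl/fl value came from fl/fl 5 and the highest iADKO value from iADKO 6, and these 2 mice alone made the genotypes overlap. Sdha reached 60.9% of the fl/fl level, a log2 fold change of -0.72 ± 0.11 (SE; edgeR adjusted p = 5.7e-04). Sdhb, the iron-sulfur protein that carries electrons away from the flavin, ranged from 108 to 171 CPM around a median of 155 in fl/fl. In iADKO it ranged from 86.6 to 124 CPM around a median of 95.6, again with overlap between fl/fl 5 and iADKO 6. Its log2 fold change was -0.60 ± 0.11 (SE; edgeR adjusted p = 0.00146). The membrane anchors Sdhc and Sdhd, which bind ubiquinone, fell less, by 0.42 and 0.37 on the log2 scale. Sdhd, the member of the complex with the smallest change, ranged from 101 to 148 CPM around 129.9 in fl/fl and from 87.9 to 119 CPM around 99.0 in iADKO (edgeR adjusted p = 0.00569). The 2 catalytic subunits had a median log2 fold change of -0.66 and the 2 anchors one of -0.39. The difference between these roles was not tested.

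In complex III, 8 of 9 genes fell and the median log2 fold change was -0.49. Cyc1 encodes cytochrome c1, the heme protein that hands electrons to cytochrome c. Its lowest, median and highest levels were 113, 180 and 208 CPM in fl/fl and 102, 111 and 150.3 CPM in iADKO. Apart from fl/fl 5, every fl/fl mouse was above every iADKO mouse, and the log2 fold change was -0.60 ± 0.12 (SE; edgeR adjusted p = 0.00327). Uqcrq, a small subunit next to cytochrome b, ranged from 75.6 to 150.5 CPM around 126 in fl/fl and from 70.8 to 105 CPM around 79.6 in iADKO. Its log2 fold change was -0.53 ± 0.13 (SE; edgeR adjusted p = 0.0101). Uqcrfs1, the Rieske iron-sulfur protein, fell by 0.51 on the log2 scale, and the core proteins Uqcrc1 and Uqcrc2 fell by 0.46 and 0.49. The small subunits Uqcr11, Uqcr10 and Uqcrb fell by 0.52, 0.46 and 0.39.

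Uqcrh, the acidic hinge protein that helps cytochrome c1 meet cytochrome c, was the exception. It ranged from 118.5 to 147 CPM around a median of 129.6 in fl/fl and from 91.9 to 131 CPM around 116 in iADKO, and the genotypes overlapped widely. Its log2 fold change was -0.20 ± 0.08 (SE), with an edgeR adjusted p of 0.0707. DESeq2 called it lower at an adjusted p of 0.0406.

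In complex IV, 10 of 16 tested genes fell, 1 rose and 5 were not called, with a median log2 fold change of -0.37. The 10 widely expressed subunits moved within a narrow band, from -0.48 for Cox8a to -0.29 for Cox7a2, and 8 of them fell. Cox4i1, the widely expressed form of the largest nuclear subunit, had lowest, median and highest levels of 341, 432 and 482 CPM in fl/fl and 277, 323 and 411 CPM in iADKO. Only iADKO 6 reached into the fl/fl range, and the log2 fold change was -0.37 ± 0.10 (SE; edgeR adjusted p = 0.0110). The widely expressed partners of 3 tissue isoforms also overlapped between the genotypes. Cox6b1 ranged from 147.8 to 224.5 CPM around 217 in fl/fl and from 139 to 178 CPM around 156 in iADKO. Cox7a2 ranged from 64.4 to 100.7 CPM around 90.7 in fl/fl and from 63.3 to 90.4 CPM around 72.7 in iADKO. Cox8a ranged from 216 to 328 CPM around 306 in fl/fl and from 190.5 to 276 CPM around 200.04 in iADKO. In each of them fl/fl 5 was the lowest fl/fl mouse and iADKO 6 the highest iADKO mouse. Cox5a, Cox5b and Cox6b1 fell by 0.37 each, Cox6a1 by 0.45 and Cox7c by 0.32. The 2 that were not called were Cox6c, with a log2 fold change of -0.35 ± 0.14 (SE; edgeR adjusted p = 0.0699), and Cox7b, with -0.32 ± 0.12 (SE; edgeR adjusted p = 0.0551). Cox5b-ps, a near copy of Cox5b that the annotation lists as protein coding, had a mean of 2.04 CPM in fl/fl and was not called (log2 fold change -0.30 ± 0.17, SE; edgeR adjusted p = 0.190). Ndufa4, a subunit of complex IV whose name lies outside the rule, fell by 0.43.

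Cox7a2l, which helps complexes III and IV join into supercomplexes, was not lower in iADKO. It ranged from 95.3 to 127 CPM in fl/fl and from 113 to 129.9 CPM in iADKO, with medians of 113 and 127 CPM. The log2 fold change of 0.13 ± 0.06 (SE) was not called (edgeR adjusted p = 0.134). In fl/fl 5, where most members were at their lowest, Cox7a2l was 123 CPM and the second highest of the fl/fl values.

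**Figure D2:**
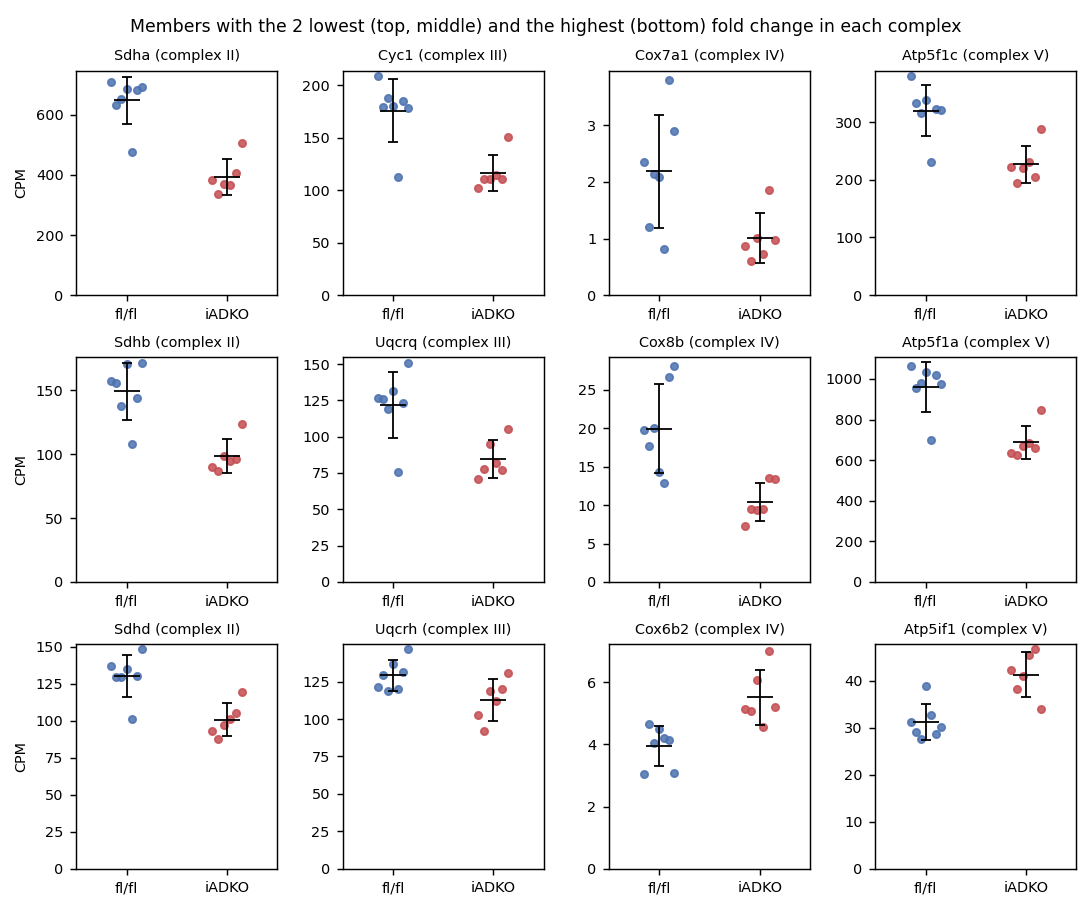
CPM (vertical axis, from 0) in each fl/fl (blue, n = 7) and iADKO (red, n = 6) mouse for the members with the 2 lowest fold changes (top and middle) and the highest (bottom) in each complex, with mean and SD bars. Sdha separates the genotypes except for 1 low fl/fl mouse (477 CPM) and 1 high iADKO mouse (508 CPM), and Cox6b2 and Atp5if1 are higher in iADKO.

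The tissue isoforms of complex IV gave both the lowest and the highest fold changes of all members. Cox7a1, the form of subunit 7A known from heart, skeletal muscle and brown fat, was a minor transcript here. It measured 2.36, 1.21, 2.14, 2.09, 0.81, 3.81 and 2.91 CPM in fl/fl 1 to 7 and 0.876, 0.606, 1.01, 0.72, 1.86 and 0.982 CPM in iADKO 1 to 6. The highest values of each genotype came from fl/fl 6 and fl/fl 7 and from iADKO 5, and the genotypes overlapped through fl/fl 2, fl/fl 5 and iADKO 5. The log2 fold change was -1.11 ± 0.34 (SE; edgeR adjusted p = 0.0247), and the call was lost without fl/fl 6, iADKO 2 or iADKO 4, with edgeR adjusted p between 0.0542 and 0.0572.

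Cox8b, the rodent form of subunit 8 in the same tissues, measured 19.8, 17.7, 19.99, 14.3, 12.9, 26.7 and 28.2 CPM in fl/fl 1 to 7. In iADKO 1 to 6 it measured 7.3, 9.47, 9.33, 9.5, 13.5 and 13.4 CPM. The genotypes met at fl/fl 5, and 4 of the 6 iADKO mice lay below every fl/fl mouse. Cox8b fell to 52.3% of the fl/fl level, a log2 fold change of -0.94 ± 0.20 (SE; edgeR adjusted p = 0.00401). It shares exon sequence on the opposite strand with Psmd13, which had 16697 counts. The strand setting of the counting is not given in the sources used here, so reads of these 2 genes may not have been told apart.

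Cox6b2, the testis form of subunit 6B, moved the other way. It measured 3.05, 4.67, 4.04, 4.51, 4.2, 4.14 and 3.07 CPM in fl/fl 1 to 7 and 5.16, 5.09, 6.06, 4.56, 7.02 and 5.2 CPM in iADKO 1 to 6. Only iADKO 4 lay within the fl/fl range. The log2 fold change was 0.48 ± 0.13 (SE; edgeR adjusted p = 0.0152).

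Cox4i2, a form of subunit 4 known from lung and from pericytes, ranged from 2.15 to 3.18 CPM around 2.66 in fl/fl and from 1.31 to 2.5 CPM around 2.03 in iADKO, and was not called (log2 fold change -0.38 ± 0.16, SE; edgeR adjusted p = 0.0822). Cox6a2, the heart and skeletal muscle form of subunit 6A, did not pass the filter on low counts. It was highest in fl/fl 1 (1.95 CPM), iADKO 3 (1.73 CPM), fl/fl 5 (1.16 CPM) and iADKO 5 (1.003 CPM). The same 4 libraries had the highest summed levels of 10 fast skeletal muscle markers, at 374, 184, 451 and 251 CPM, against 88.1 CPM or less in the other libraries. The part of muscle RNA in these values was not tested.

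The 6 ratios between a tissue isoform or paralogue and its widely expressed partner were compared mouse by mouse, on the log2 scale, by exact permutation of the genotypes (two-sided, each of the 1716 ways to choose 6 of 13 mice). The smallest p this design allows is 0.000583, and the p-values were adjusted over the 6 ratios. The groups overlapped in all 6. Cox6b2 rose against Cox6b1: the mean log2 ratio was -5.66 ± 0.36 (SD, n = 7) in fl/fl and -4.82 ± 0.25 (SD, n = 6) in iADKO, a difference of 0.84 (exact p = 0.00175, adjusted p = 0.0105).

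Cox7a1 fell against Cox7a2 by 0.69, from -5.42 ± 0.57 (SD, n = 7) to -6.11 ± 0.46 (SD, n = 6; exact p = 0.0385, adjusted p = 0.0462). Cox8b fell against Cox8a by 0.43, from -3.94 ± 0.35 (SD, n = 7) to -4.37 ± 0.28 (SD, n = 6), with the same exact p of 0.0385 and adjusted p of 0.0462. Leaving out 1 mouse ended these 2 calls in 10 and 11 of 13 cases, and on the deposited rlog values the exact tests gave adjusted p = 0.321 and 0.108. The difference between Cox4i2 and Cox4i1 was -0.01 (exact p = 0.974). Brown or beige adipocyte markers had summed levels of 34.3 to 120 CPM in fl/fl and 17.5 to 59.5 CPM in iADKO. They were highest in fl/fl 6 (120 CPM), fl/fl 7 (93.4 CPM) and iADKO 5 (59.5 CPM among iADKO), the mice that also had the highest Cox7a1 in their genotype. Of 6 tested markers of that list 3 fell, among them Ucp1, the uncoupling protein, with a median of 11.3 CPM in fl/fl and 1.11 CPM in iADKO. Their part in the fall of Cox7a1 and Cox8b was not tested.

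**Figure D3:**
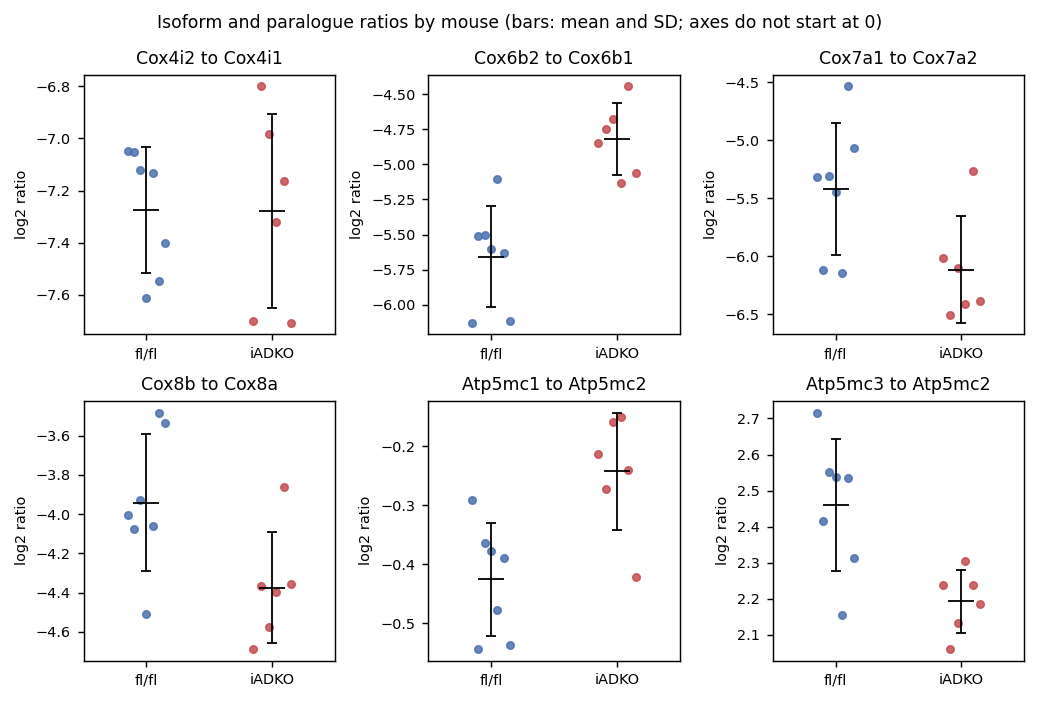
Log2 ratio of each tissue isoform or paralogue to its partner (vertical axes, which do not start at 0) in each fl/fl (blue, n = 7) and iADKO (red, n = 6) mouse, with mean and SD bars. Cox6b2 to Cox6b1 lies higher in iADKO (difference 0.84), Cox7a1 to Cox7a2 and Cox8b to Cox8a lie lower (0.69 and 0.43), and every panel overlaps.

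The stretches of 120 bases before the most upstream annotated start of the isoform genes are shown because these partners diverged in level, with Uqcr11 added as a gene of complex III that fell and whose stretch holds an ETS word. They were read from GRCm39, 5′ to 3′ on the strand of the gene, and none overlaps an annotated exon (GENCODE vM39), as that of Cox8a does. Capitals mark a match to 1 of 5 words searched on both strands: GCATGCGC (NRF1), CAAGGTCA (estrogen-related receptors), CCGGAAG (ETS factors such as GABPA), AAGATGGC (YY1) and GGGCGG (SP and KLF factors). The stretch of Cox7a1 lies at chr7:29883449-29883568 on the plus strand, that of Cox7a2 at chr9:79667163-79667282, that of Cox8b at chr7:140480360-140480479, that of Cox6b1 at chr7:30325617-30325736, that of Cox6b2 at chr7:4756094-4756213 and that of Uqcr11 at chr10:80242677-80242796, all 5 on the minus strand.
Cox7a1: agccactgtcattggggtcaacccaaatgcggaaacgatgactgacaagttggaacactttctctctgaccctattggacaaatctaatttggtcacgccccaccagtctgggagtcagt
Cox7a2: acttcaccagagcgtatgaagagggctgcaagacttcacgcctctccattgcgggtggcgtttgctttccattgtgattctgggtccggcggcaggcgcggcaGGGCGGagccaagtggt
Cox8b: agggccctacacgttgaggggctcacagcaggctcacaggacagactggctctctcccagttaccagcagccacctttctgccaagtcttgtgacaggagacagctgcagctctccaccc
Cox6b1: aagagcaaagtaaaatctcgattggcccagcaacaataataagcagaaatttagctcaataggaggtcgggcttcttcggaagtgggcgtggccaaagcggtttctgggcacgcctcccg
Cox6b2: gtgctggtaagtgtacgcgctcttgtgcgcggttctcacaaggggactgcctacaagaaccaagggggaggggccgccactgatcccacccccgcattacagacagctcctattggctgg
Uqcr11: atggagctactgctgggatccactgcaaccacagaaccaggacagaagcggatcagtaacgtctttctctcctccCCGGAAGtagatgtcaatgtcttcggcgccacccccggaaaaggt
Cox7a2 and Uqcr11 each hold 1 word, and the other 4 stretches hold none, which says only that these letters are not in these windows.

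Over longer windows, of 250 bases before to 50 after each RefSeq start (GRCm38.p6), 35 of the 48 members had an entry. The NRF1 word stood in 7 of them (20%), against 3.94% of 17492 protein-coding genes. The ETS word stood in 12 (34.3%, against 12.9%), the estrogen-related receptor word in 3 (8.57%, against 1.56%) and the YY1 word in 3 (8.57%, against 3.57%). The SP and KLF word was less frequent in the members, in 13 (37.1%, against 49.2%). Of the 26 members with an entry that fell, 6 held the NRF1 word and 10 the ETS word. The windows of Cox7a1 and Cox8b held none of the 5 words.

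In complex V, 11 of 18 genes fell, 1 rose and 6 were not called, with a median log2 fold change of -0.30. The F1 head and central stalk, where ATP is made, had a median of -0.41, and 4 of its 5 genes fell. Atp5f1c, the gamma subunit that turns inside the head, had lowest, median and highest levels of 231, 323 and 380.3 CPM in fl/fl and 194, 221 and 288 CPM in iADKO. Only fl/fl 5 lay among the iADKO mice, and the log2 fold change was -0.50 ± 0.11 (SE; edgeR adjusted p = 0.00426). Atp5f1a, the alpha subunit, ranged from 698 to 1063 CPM around 979.8 in fl/fl and from 627 to 848 CPM around 665 in iADKO. Its log2 fold change was -0.48 ± 0.10 (SE; edgeR adjusted p = 0.00362). The catalytic beta subunit Atp5f1b was the most abundant member by CPM per kilobase of transcript, at 842 in fl/fl and 636 in iADKO, and fell by 0.41 on the log2 scale. Atp5f1e, the epsilon subunit, was not called (log2 fold change -0.25 ± 0.10, SE; edgeR adjusted p = 0.0593).

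The peripheral stalk, which keeps the head from turning, had 3 of 4 genes lower: Atp5pb and Atp5pf fell by 0.39 and 0.38, Atp5pd fell by 0.29, and Atp5po had a log2 fold change of -0.29 and was not called. Of the 5 small membrane subunits, Atp5me, Atp5mf and Atp5mg fell by 0.36, 0.30 and 0.28, while Atp5mk (-0.22) and Atp5mj (-0.17) were not called.

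The c ring, the rotor in the membrane, is made of 1 protein encoded by 3 genes that differ in their import sequence, and these genes did not move alike. Atp5mc3, the most abundant, ranged from 235 to 356 CPM around 335 in fl/fl and from 224 to 296 CPM around 233 in iADKO, and fell by 0.41 (edgeR adjusted p = 0.00646). Atp5mc2 ranged from 52.8 to 67.4 CPM around 58.2 in fl/fl and from 48.1 to 65.1 CPM around 52.2 in iADKO, with a log2 fold change of -0.13 ± 0.08 (SE; edgeR adjusted p = 0.201). Atp5mc1 ranged from 37.9 to 47.0 CPM around 43.8 in fl/fl and from 40.7 to 48.6 CPM around 45.1 in iADKO, with a log2 fold change of 0.05 ± 0.06 (SE; edgeR adjusted p = 0.586). The ratio of Atp5mc3 to Atp5mc2 fell by 0.27, from 2.46 ± 0.18 (SD, n = 7) to 2.19 ± 0.09 (SD, n = 6; exact p = 0.0111, adjusted p = 0.0221). The ratio of Atp5mc1 to Atp5mc2 rose by 0.18, from -0.43 ± 0.10 (SD, n = 7) to -0.24 ± 0.10 (SD, n = 6; exact p = 0.00932, adjusted p = 0.0221). For Atp5mc1 and Atp5mc2, 85.8% and 89.2% of the transcript had a copy elsewhere in the genome of at least 98% identity, and Atp5mc3 had none. The values of the first 2 genes are therefore uncertain.

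Atp5if1, the inhibitor that blocks ATP hydrolysis by complex V, rose. It measured 31.2, 29.0, 27.6, 38.8, 32.6, 28.7 and 30.1 CPM in fl/fl 1 to 7 and 42.2, 38.2, 41.0, 45.5, 46.7 and 33.9 CPM in iADKO 1 to 6. The overlap came from fl/fl 4, which was above iADKO 2 and iADKO 6. The log2 fold change was 0.40 ± 0.09 (SE; edgeR adjusted p = 0.0042). Unlike most members, it was above the fl/fl median in fl/fl 5 and lowest among iADKO mice in iADKO 6.

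**Figure D4:**
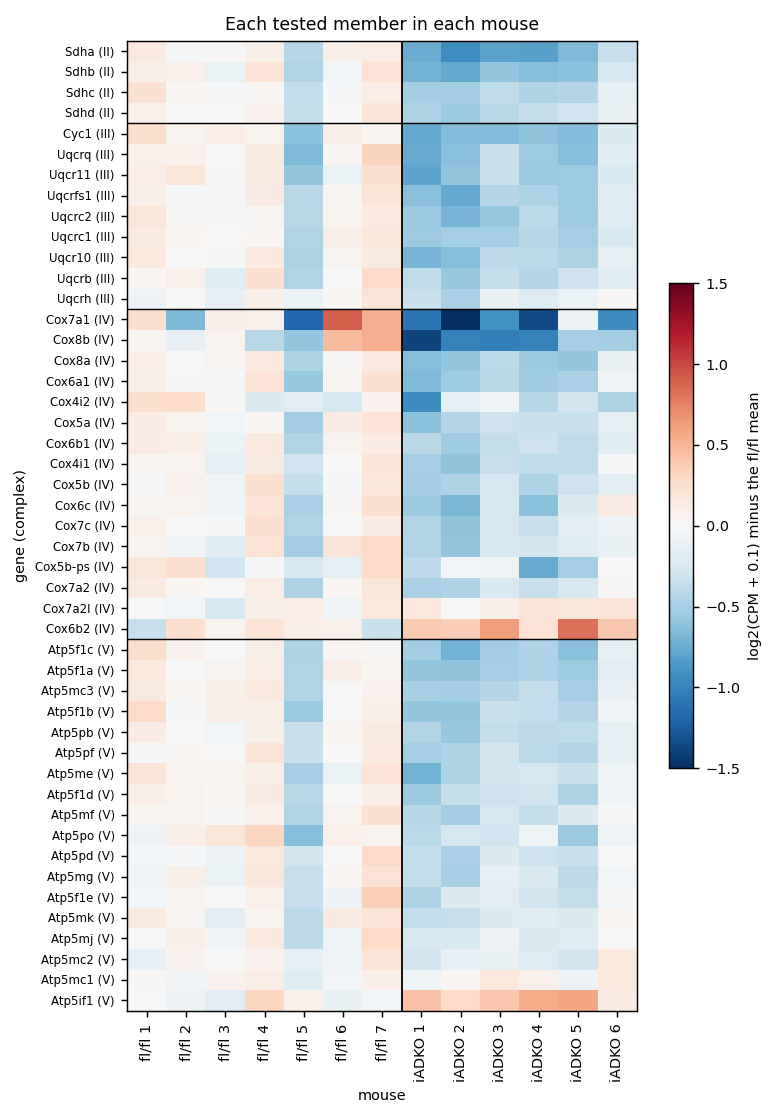
Level of each tested member (rows, by complex) in each mouse (columns) as the log2 difference from the fl/fl mean, with blue below and red above it. The fl/fl 5 column is blue in most rows and the iADKO 6 column pale, and the rows of Atp5if1 and Cox6b2 are red in iADKO.

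Most members moved together from mouse to mouse. The median over members of the log2 deviation from the fl/fl mean was -0.45 in fl/fl 5 and between -0.01 and 0.18 in the other 6 fl/fl mice. In iADKO it was -0.11 in iADKO 6 and between -0.53 and -0.32 in the other 5. Without fl/fl 5, 26 of the 47 members had all iADKO values below all fl/fl values, which 10.1% of all genes did. Without iADKO 6 there were 8 such members, beside 8.61% of all genes. Both mice were singled out by the members' own values, so leaving them out favours the members over all genes. In level per kilobase of transcript the members spanned from 842 (Atp5f1b) to 0.99 (Cox6a2) CPM in fl/fl, and the fold change did not follow that level (Spearman rho -0.18 across the 47 tested genes, which share their libraries).

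The library names carry numbers, which were grouped here into 4 series, and both fl/fl 5 and iADKO 6 belong to the series from 722 to 727. The labels name no series, and where to cut was a choice. The mouse iADKO 1, numbered 765, was placed with those from 747 across a gap as wide as one used as a cut elsewhere. The values below for that series and for the block rest on this choice. The labels do not say what a series shares. Within that series (2 fl/fl, 2 iADKO) the median log2 fold change of the members was -0.13 and 34 of 47 mean differences were negative, but edgeR called 0 members and 0 of all 16890 genes tested. At an unadjusted p under 0.05 it called 0 members and 657 genes. Within the series from 747 to 765 (3 fl/fl, 2 iADKO) the median was -0.56, 44 of 47 differences were negative and 40 members fell, beside 15.4% of all genes. The other 2 series held mice of 1 genotype only. With the series as a block, the mice of these 2 series do not inform the genotype difference, so that fit compares fewer mice. In it 4 members fell (Sdha, Sdhb, Uqcrfs1 and Cox8b) and 0 rose (1 at an unadjusted p under 0.05). Of all genes 7.17% fell, while the members' median stayed at -0.37.

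**Figure D5:**
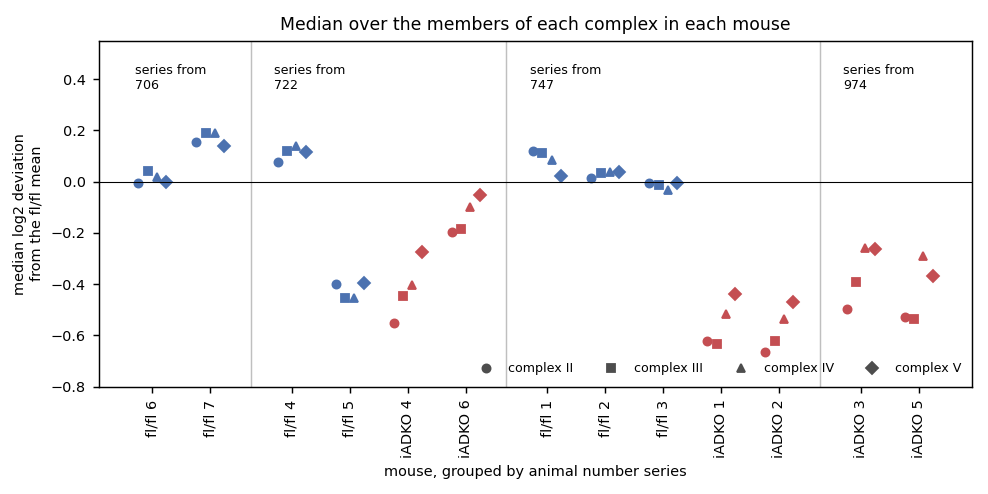
Median log2 deviation from the fl/fl mean over the members of each complex (symbols) in each fl/fl (blue) and iADKO (red) mouse, grouped by the series of library numbers. The fl/fl 5 mouse lies near -0.4 in all 4 complexes, among the iADKO mice, and iADKO 6 lies highest of the iADKO mice.

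Adipocyte markers moved along with the members, macrophage markers moved the opposite way, and lists of other cell types varied in direction. All 10 adipocyte markers fell, with a median log2 fold change of -0.84, and their summed level ranged from 26279 to 41843 CPM in fl/fl and from 16310.5 to 26849.6 CPM in iADKO. The lowest fl/fl sum was that of fl/fl 5 and the highest iADKO sum that of iADKO 6, as for the members. Of 9 macrophage markers 7 rose, with a median of 0.69. Their sums ranged from 2336 to 5934 CPM in fl/fl, with fl/fl 5 highest, and from 3585 to 6197 CPM in iADKO, with iADKO 6 lowest. Of 10 fast muscle markers 0 were called by edgeR or DESeq2, and 0 had an unadjusted edgeR p under 0.05. Their median log2 fold change was nevertheless -0.74. Their summed level had a median of 76.1 CPM in fl/fl (range 22.5 to 451) and 25.4 CPM in iADKO (range 14.9 to 251). Of the B cell markers 2 of 4 rose, of the T cell markers 1 of 3 rose and of the endothelial markers 2 of 4 fell. Over the 6 smooth muscle and pericyte markers the median log2 fold change was 0.58, and their summed level had a median of 888 CPM in fl/fl and 1031 CPM in iADKO. Of these, edgeR called 1, Ndufa4l2, which was lower in iADKO. Of 4 mesothelial, 4 progenitor and 2 tested cardiac or slow muscle markers edgeR called 0, with 1 of each list at an unadjusted p under 0.05. DESeq2 called 1 mesothelial and 1 cardiac or slow muscle marker and 0 progenitor markers. The part of cell composition in the fall of the members was not tested.

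Other genes of the same system were taken from lists. The mitochondrially encoded mt-Cytb of complex III fell by 0.82 on the log2 scale and mt-Co1 of complex IV by 0.73. They had medians of 7943 and 20636.5 CPM in fl/fl and 4402 and 11676 CPM in iADKO. The other mitochondrial genes of complexes III to V were listed at 4.91 CPM or less in every library, far below mt-Co1. Of these 4, 2 were called lower, mt-Co3 and mt-Atp6. The counting settings are not given in the sources used here, so whether such low values reflect the RNA of these genes is not known. Of 37 nuclear subunits of complex I, 28 fell, with a median of -0.36. Of 42 assembly factors for complexes II to V, 20 fell and 1 rose, with a median of -0.21. Sdhaf2, which attaches the flavin to Sdha, Ttc19 for complex III and Atpaf1 for the F1 head all fell without overlap between the genotypes, by 0.33, 0.38 and 0.36. In either direction, 4 of the 42 had no overlap. Over all genes tested, 3.93% were lower and 2.71% higher without overlap. Sco2, a copper chaperone of complex IV, ranged from 0.347 to 0.773 CPM in fl/fl and from 0.818 to 1.18 CPM in iADKO and rose by 0.74 on the log2 scale.

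Of 12 tested transcriptional regulators of these genes, 3 fell and 3 rose. Pparg, the master regulator of adipocyte genes, fell by 0.70, Ppara by 0.81 and Esrra by 0.23. Gabpb1, the partner subunit of GABPA, was between 14.5 and 17.4 CPM in fl/fl and between 19.3 and 21.9 CPM in iADKO, and rose by 0.37. It was the 1 regulator of these 12 without overlap. Pprc1 rose by 0.40 and Sp1 by 0.17. The coactivator Ppargc1a had a log2 fold change of -0.44 ± 0.20 (SE) and was not called (edgeR adjusted p = 0.0976). Of 12 genes used as measures of mitochondrial content, 4 fell, among them citrate synthase (Cs, by 0.49) and the outer membrane channel Vdac1 (by 0.34). Their median was -0.19, and the import receptor Tomm20 had a log2 fold change of 0.01 (edgeR adjusted p = 0.891).

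Counting limits touch some members. Of the 48, 9 had 30% or more of their transcript in a near-identical copy (at least 98% identity over 100 bases), namely Atp5mc2, Uqcrb, Atp5mc1, Cox7c, Cox5b-ps, Atp5mg, Cox5b, Atp5pd and Atp5pb. Of the 33 members that fell, 24 had no such copy. Exons of 14 members overlap an opposite-strand gene with 1000 or more counts, Sdha, Cox4i1 and Atp5f1a among them.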

How the data were processed

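Per the labels and the study's methods, RNA of frozen powdered pmWAT was made into strand-specific mRNA libraries and sequenced on DNBSEQ, the reads were checked with FastQC 0.12.1 and aligned with STAR 2.7.11a to mm39, and DESeq2 was used. The counting tool, annotation and strand setting are not given in the sources used here. The deposited files hold raw counts per Ensembl gene and rlog values, the regularised log2 counts made by the authors with DESeq2, for 33618 identifiers. Names, types and positions came from GENCODE vM39 (GRCm39), which held 33184 of them. Samples were grouped by their titles, with 7 fl/fl and 6 iADKO mice and 18854223 to 19776491 counts per library. No library was a copy of another (chi-square per degree of freedom between mice of a genotype at least 8.56).

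The genotypes were compared with edgeR 4.0.16 (R 4.3.3) in 1 fit of all genes: filterByExpr (16753 genes kept), TMM normalization, the robust quasi-likelihood test and Benjamini-Hochberg adjustment over all genes, called at 0.05, without covariates. CPM are TMM-normalized, and log2 CPM for ratios used a prior count of 2. SE is the log2 fold change divided by the root of its F statistic. Ratios were tested by exact permutation over mice. Alternatives were DESeq2 1.42.0 (test and size factors), limma 3.58.1 on rlog values, other filters, normalization without mitochondrially encoded genes, blocks for replicate number and for the series of library numbers, each series alone and each mouse left out. Near-identical copies were sought with BLAST 2.17.0+. Promoter windows came from RefSeq (GRCm38.p6). The statistics were tested on simulated data.

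The members, gene lists and motif words were chosen with earlier results of these data known, so no list was tested as a set. Named by rule were the isoform and subunit c pairs, the 2 lowest and the 1 highest fold change of each complex, members that rose, and genes of the lists. For them the lowest, median and highest mouse, or every mouse, is given. Mice are separate animals of a genotype, and whether they shared litters or days is not stated.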

Additional observations from a re-analysis of the deposited data

Results flagged for a closer look

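Of 116 groups of 6 or 7 values examined (each tested member, ratio and median in each genotype), 36 had a lowest or highest mouse set apart from the rest. The value given is that mouse's gap to its nearest neighbour as a share of the whole range of the group. Chance flags about 1 in 20 such groups, and the members are not independent of each other, since they share libraries. In 32 of the 36 the mouse was fl/fl 5, lowest in its genotype, and in 4 it was iADKO 6, highest in its genotype.

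For fl/fl 5 the share of the range was 0.714 for Sdha, 0.589 for Sdhc and 0.649 for Sdhd in complex II. In complex III it was 0.747 for Cyc1, 0.633 for Uqcrfs1, 0.716 for Uqcrc1, 0.64 for Uqcrc2, 0.658 for Uqcrq, 0.727 for Uqcr10 and 0.586 for Uqcr11. In complex IV it was 0.778 for Cox8a, 0.715 for Cox7a2, 0.672 for Cox6a1, 0.647 for Cox5a, 0.62 for Cox7c, 0.576 for Cox6b1 and 0.574 for Cox6c. In complex V it was 0.771 for Atp5f1d, 0.747 for Atp5mc3, 0.743 for Atp5f1a, 0.7 for Atp5mf, 0.641 for Atp5pb, 0.63 for Atp5f1c, 0.622 for Atp5f1b, 0.594 for Atp5pf, 0.574 for Atp5po and 0.57 for Atp5me. The median deviation of fl/fl 5 stood apart by 0.698 over all members, and by 0.708, 0.684, 0.655 and 0.735 over complexes II, III, IV and V.

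For iADKO 6 the share was 0.63 for Sdhb, 0.704 for Cyc1, 0.708 for Atp5f1a and 0.645 for the median over complex II. Neither Atp5if1, Cox6b2 nor Cox7a2l was set apart in either genotype. With fl/fl 5 left out, 39 members fell, beside 19.7% of all genes tested. With iADKO 6 left out, 39 fell, beside 18.1%, and with all mice 33 fell, beside 16.3%. Both mice were flagged in the members' own values, so leaving them out favours the members over all genes.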

How the results depend on the processing

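Of 361 alternative values of the counts, medians and ratios, 305 were classed as kept. A count was kept within a set ratio of the main count, and a median if it shifted by less than the SD between mice. A ratio was kept by its call, or by that SD where it was not tested. These classes are wide. For members lower, 25 without iADKO 2 and 40 in the series from 747 counted as kept beside 33, as did the median of -0.56 in that series. The median fold changes and the 5 called ratios kept their sign in every alternative. The ratio of Cox4i2 to Cox4i1, which was not called (-0.01), changed sign in 8 of 18, among them rlog values (0.15). With the series of library numbers as a block, only the 2 series with both genotypes inform the comparison. In that fit 4 members were lower and 0 higher (complex II 2, III 1, IV 1, V 0). In the series from 722 alone all these counts were 0. In the series from 747 alone 1 member was higher. Medians in the series from 722 were -0.13 over all members and -0.25, -0.15, -0.14 and -0.022 for complexes II to V, and in the series from 747 they were -0.70 for complex II and -0.73 for complex III. The ratio of Cox6b2 to Cox6b1 differed by 0.26 in the series from 722. The cause of these shifts was not tested, and a series holds 4 or 5 mice. Of the members tested, 6 changed sign in the series from 722: Cox7a2 (0.00026) and Atp5me (0.0052), which were called with all mice, and Atp5mj, Atp5mc2, Atp5po and Atp5mk (0.0022 to 0.078), which were not. Atp5mc1 changed sign in the series from 747 (-0.034). On rlog values the ratio of Cox7a1 to Cox7a2 differed by -0.11 and that of Cox8b to Cox8a by -0.25, and neither was called (exact test, adjusted p = 0.321 and 0.108).

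With 1 mouse left out, complex V had 6 to 15 genes lower, with 6 without iADKO 1 or iADKO 2, 7 without fl/fl 4 or iADKO 5 and 15 without fl/fl 5. The ratio of Cox7a1 to Cox7a2 then differed by -0.86 to -0.55, that of Cox8b to Cox8a by -0.53 to -0.36, that of Atp5mc1 to Atp5mc2 by 0.16 to 0.22 and that of Atp5mc3 to Atp5mc2 by -0.32 to -0.23. Atp5mc1 to Atp5mc2 lost its call without iADKO 3, and Atp5mc3 to Atp5mc2 without iADKO 2 or iADKO 3. Of the 35 called members 27 kept the call in all 13 fits, and the other 8 lost it in several: Cox7a2 in 11, Atp5mf in 10, Atp5me and Atp5mg in 8 each, Cox7c in 6, Atp5pd in 5, Atp5f1b in 4 and Cox7a1 in 3. All 8 lost it without iADKO 2, with edgeR adjusted p between 0.0572 and 0.0951. Over the planned settings that kept all mice and fitted no block, 32 to 37 members were lower.

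Replicate numbers are shared by 6 mice of each genotype, and the labels do not name them as pairs. Residuals of same-numbered mice correlated at 0.08, 0.17, 0.01, -0.03, 0.22 and 0.20. Their mean was 0.11, beside -0.02 for other pairs, and 2 of 6 iADKO mice correlated best with their own number. Leaving out fl/fl 7, which has no same-numbered iADKO mouse, gave 28 members lower. With a replicate block as well, 26 members were lower and 2 higher, beside 14.7% of all genes lower. The ratio differences over same-numbered mice were then 0.76 for Cox6b2 to Cox6b1, -0.64 for Cox7a1 to Cox7a2, -0.36 for Cox8b to Cox8a, 0.16 for Atp5mc1 to Atp5mc2 and -0.29 for Atp5mc3 to Atp5mc2, with exact sign-flip p adjusted to 0.125 or 0.188. With 6 differences the smallest p of the sign-flip test is high. An adjusted p under 0.05 could be reached only if most of the 6 ratios had that smallest p. The depth of 18854223 or more counts per library left Cox6a2 untested.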
